A study of Mus musculus with 9 samples.

Results

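The excitatory neurons of the cerebral cortex and hippocampus can be told from most other brain cells by a small set of genes, and 9 of these were followed here through RNA that the series text places in the substantia nigra and the sample labels call brain tissue: Neurod6, Neurod2, Tbr1, Emx1, Cux2, Slc17a7, Camk2a, Nrgn and Fibcd1. They were taken by symbol from a table of 55335 genes, all 9 were found, and all 9 passed the minimum of a mean of 0.5 FPKM over the libraries that 15997 genes passed. FPKM is the number of sequenced fragments of a gene scaled to its length and to the depth of the library, so levels can be set side by side between genes. The libraries came from 3 groups of mice with 3 libraries each. The vehicle mice received saline injections. The MPTP group was injected intraperitoneally with MPTP, a mitochondrial toxin taken up by dopaminergic neurons, at 20 mg/kg with 2 injections per week for 5 weeks. The remaining group (MPTP + running) had MPTP on the same schedule and 2 months of voluntary wheel exercise after the first injection. Tissue of 3 mice per group is named in the series text, which does not state that each library is 1 mouse, and strain, age and sex were not given in the sources used. The p-values therefore measure the spread between these libraries, which may in part be technical.

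Cortical and hippocampal pyramidal neurons arise from dorsal forebrain progenitors that express Emx1, a homeobox gene. Their daughter cells switch on the basic helix-loop-helix factors Neurod2 and Neurod6 and the T-box factor Tbr1 as they leave the cell cycle, and the mature cells load glutamate into synaptic vesicles with VGLUT1, the product of Slc17a7, and carry high levels of the calmodulin-binding synaptic proteins encoded by Camk2a and Nrgn. The midbrain has few such cells: its glutamatergic neurons mostly use VGLUT2, the product of Slc17a6, and the substantia nigra holds dopaminergic and GABAergic neurons. The substantia nigra itself lies in the ventral midbrain, close to the thalamus and the hippocampus.

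The libraries held an estimated 22000000 to 26700000 fragments each, if the FPKM were scaled to the counted fragments. Between 13413 and 13965 genes reached 1 FPKM, and genes of the mitochondrial genome took 29.8% to 32.0% of the summed FPKM. Across all tested genes, limma with Benjamini-Hochberg adjustment called 2 genes between MPTP and vehicle (Igfbp2 and H2-K1, named after their values were seen) and 0 in each of the other comparisons. At an unadjusted p under 0.05 there were 654 genes in that comparison, 639 for MPTP + running against MPTP and 1047 for MPTP + running against vehicle. With 1 library left out at a time the count between MPTP and vehicle ran from 0 (without MPTP 2, MPTP 3 or any 1 of the running libraries) to 32 (without MPTP 1). Between MPTP + running and MPTP it reached 25 without MPTP 1, and between MPTP + running and vehicle it reached 2 without vehicle 1 or vehicle 2.

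The tissue label was compared with the genes that define dopaminergic neurons. Th, which encodes the rate-limiting enzyme of dopamine synthesis, stood at 5.30, 2.97 and 15.6 FPKM in vehicle 1, 2 and 3, at 5.93, 1.64 and 12.5 FPKM in MPTP 1, 2 and 3, and at 2.66, 5.35 and 6.69 FPKM in MPTP + running 1, 2 and 3. Slc6a3, the dopamine transporter, was at 3.40, 1.41 and 10.8 FPKM in the vehicle libraries, at 2.75, 0.0377 and 14.4 FPKM in the MPTP libraries, and at 0.149 FPKM, listed at 0 and at 10.6 FPKM in the MPTP + running libraries. MPTP 2 and MPTP + running 1 and 2 thus had Slc6a3 under 1 FPKM, and the 3 vehicle libraries had it above. The 15 genes of the dopaminergic list summed to 55.0 to 83.5 FPKM in vehicle, 48.8 to 104 in MPTP and 53.5 to 83.0 in MPTP + running, and 4 of the 15 were listed at 0 in at least 1 library. Aldh1a1 had the highest mean of the list, 34.2 FPKM, and weighs heavily in these sums. Slc18a2 was at 8.38, 4.73 and 3.62 FPKM in the vehicle libraries and Ddc at 9.34, 5.05 and 4.61 FPKM. Slc18a2 and Ddc were at 1.46 and 2.48 FPKM in MPTP 2 and at 5.09 and 6.39 FPKM in MPTP + running 1. In MPTP + running 2, with Slc6a3 at 0, they were at 9.64 and 8.20 FPKM, although 4 of the 15 genes were listed at 0 there. How the tissue was dissected is not described per library in the sources used, and whether the dissected pieces differed between libraries was not tested. Over the 9 libraries the mean level of Th was 6.52 FPKM and that of Slc17a7 was 73.1 FPKM, so the transcript of the cortical and hippocampal glutamate transporter was more abundant per length than that of tyrosine hydroxylase. In bulk tissue, fewer cells of a type and less RNA per cell cannot be told apart.

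Vehicle 1 stood apart for the excitatory neuron genes. It had the lowest value of all 9 libraries for 7 of the 9 genes. MPTP + running 2 was among the 3 lowest libraries for 9 of 9. MPTP 2 had the highest value for 5 genes and was among the 3 highest for 8, and MPTP + running 3 had the highest value for 4. Results of the 9 genes between groups are therefore given with and without vehicle 1, and with and without the 3 libraries that had Slc6a3 under 1 FPKM. Results of other gene lists are given with all libraries only.

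**Figure D1:**
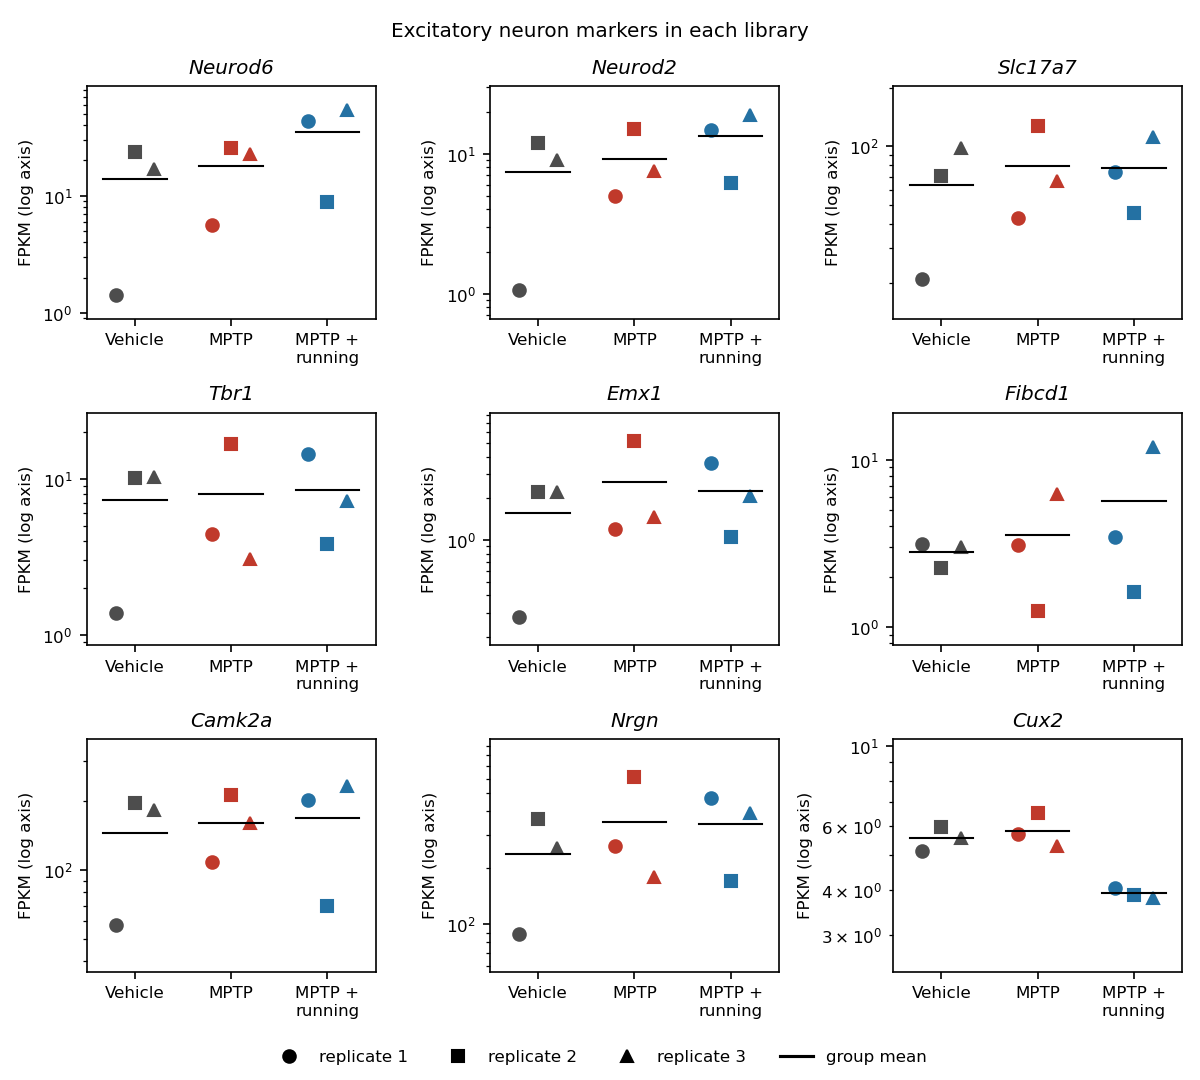
FPKM of the 9 excitatory neuron markers in each library on a logarithmic axis, by group (vehicle, MPTP, MPTP + running), with 1 symbol per replicate and a line at the group mean. Vehicle 1 is the lowest point of 7 genes (Neurod6 at 1.43 FPKM), and Cux2 is the 1 gene in which all 3 MPTP + running libraries lie under the other 6.

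Neurod6 and Neurod2 encode transcription factors of one family that recognise the E-box, the 6-letter motif CANNTG, and both are switched on in newly formed pyramidal neurons. Neurod6 is encoded on the minus strand at chr6:55677822-55681263 (ENSMUSG00000037984, GRCm38). Its level was 1.43, 23.5 and 16.7 FPKM in vehicle 1, 2 and 3, 5.64, 25.6 and 22.7 FPKM in MPTP 1, 2 and 3, and 43.0, 8.93 and 54.0 FPKM in MPTP + running 1, 2 and 3. The highest library was 37.7 times the lowest, the widest range among the 9 genes, and the 3 groups overlapped. Group means were 13.9 ± 11.3 FPKM in vehicle, 18.0 ± 10.8 in MPTP and 35.3 ± 23.5 in MPTP + running (SD, n = 3 each). Neurod2, on the minus strand at chr11:98325415-98329648 (ENSMUSG00000038255), stood at 1.06, 12.02 and 8.99 FPKM in the vehicle libraries, at 4.98, 15.0 and 7.58 FPKM in the MPTP libraries and at 14.8, 6.20 and 19.1 FPKM in the MPTP + running libraries. It was low where Neurod6 was low, in vehicle 1, MPTP 1 and MPTP + running 2, and the ratio of Neurod6 to Neurod2 stayed between 1.13 (MPTP 1) and 2.99 (MPTP 3).

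The sequence before the start of 4 of these genes is shown because 3 of them (Neurod6, Neurod2 and Slc17a7) had parallel levels over the libraries and the fourth (Fibcd1) did not, and because the factors encoded by Neurod6 and Neurod2 read E-boxes. The sequences are from RefSeq (GRCm38.p6), cover 250 bases before the start of transcription (247 for Neurod2, without the bases that the gene annotation counts as transcribed) and are written 5′ to 3′ in the direction of the gene. Capitals mark every CANNTG, a motif that reads the same way on both strands. They lie at chr6:55681264-55681513 (minus strand), chr11:98329649-98329895 (minus strand), chr7:45163671-45163920 (plus strand) and chr2:31846006-31846255 (minus strand), in the order shown.
Neurod6: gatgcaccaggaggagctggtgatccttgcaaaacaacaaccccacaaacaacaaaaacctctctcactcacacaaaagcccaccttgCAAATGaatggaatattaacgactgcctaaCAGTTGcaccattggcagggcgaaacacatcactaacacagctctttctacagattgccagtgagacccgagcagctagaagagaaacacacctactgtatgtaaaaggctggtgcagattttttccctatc
Neurod2: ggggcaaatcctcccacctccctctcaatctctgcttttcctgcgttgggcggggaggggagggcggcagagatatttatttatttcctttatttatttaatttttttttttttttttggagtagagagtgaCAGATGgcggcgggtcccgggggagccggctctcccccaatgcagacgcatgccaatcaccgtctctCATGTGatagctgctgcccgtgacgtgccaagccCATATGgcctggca
Slc17a7: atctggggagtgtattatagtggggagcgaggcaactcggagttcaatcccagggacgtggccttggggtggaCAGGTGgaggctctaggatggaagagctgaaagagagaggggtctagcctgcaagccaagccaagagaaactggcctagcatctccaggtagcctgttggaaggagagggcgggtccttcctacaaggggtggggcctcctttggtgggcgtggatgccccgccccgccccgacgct
Fibcd1: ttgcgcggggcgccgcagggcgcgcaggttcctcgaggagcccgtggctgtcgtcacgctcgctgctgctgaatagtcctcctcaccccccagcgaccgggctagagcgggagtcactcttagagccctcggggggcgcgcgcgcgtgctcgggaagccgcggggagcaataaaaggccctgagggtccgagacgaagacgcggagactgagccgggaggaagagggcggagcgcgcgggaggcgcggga

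The Neurod6 sequence holds 2 such motifs (CAAATG and CAGTTG), the Neurod2 sequence 3 (CAGATG, then CATGTG and then CATATG) and the Slc17a7 sequence 1 (CAGGTG), and the Fibcd1 sequence holds 0. CANNTG is a frequent string: 66.2% of 32851 RefSeq promoter windows of 250 bases hold at least 1, and the median window holds 1. CATATG, present in the Neurod2 window, occurs in 3.46% of those windows, and CAGATG or its reverse complement CATCTG in 14.4%. A match is a description of the letters and not a binding site. The Nrgn sequence, 91 bases without those the annotation counts as transcribed, is not shown and holds 1 motif (CATCTG). Tbr1, Emx1, Camk2a and Cux2 are not shown either. With 1 gene without parallel levels among those shown, the sequences cannot tie motifs to levels.

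Slc17a7 encodes VGLUT1, the vesicular glutamate transporter of cortical and hippocampal neurons, on the plus strand at chr7:45163949-45176142 (ENSMUSG00000070570). Its level was 20.9, 70.7 and 97.9 FPKM in the vehicle libraries, 42.9, 127 and 66.6 FPKM in the MPTP libraries, and 74.2, 45.5 and 111 FPKM in the MPTP + running libraries. The highest library (MPTP 2) was 6.09 times the lowest (vehicle 1), and each group held both a low and a high library. Slc17a6, which encodes the VGLUT2 of midbrain and thalamic neurons, ran the other way, with 66.1, 30.1 and 27.5 FPKM in vehicle, 41.9, 15.7 and 40.2 FPKM in MPTP and 24.7, 37.1 and 24.0 FPKM in MPTP + running. The ratio of Slc17a7 to Slc17a6 therefore went from 0.317 in vehicle 1 to 8.13 in MPTP 2. Vehicle 1 was the 1 library in which Slc17a6 exceeded Slc17a7.

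Tbr1 and Emx1 mark the lineage at earlier steps: Tbr1 encodes a T-box factor of deep-layer cortical neurons, and Emx1 a homeobox factor of the dorsal forebrain. Tbr1 (chr2:61802930-61814114, plus strand, ENSMUSG00000035033) stood at 1.37, 10.2 and 10.2 FPKM in the vehicle libraries, at 4.45, 16.6 and 3.05 FPKM in the MPTP libraries and at 14.4, 3.81 and 7.19 FPKM in the MPTP + running libraries. Emx1 (chr6:85187438-85204462, plus strand, ENSMUSG00000033726) was the lowest of the 9 genes per length, at 0.279, 2.21 and 2.23 FPKM in vehicle, 1.19, 5.20 and 1.48 FPKM in MPTP and 3.62, 1.06 and 2.08 FPKM in MPTP + running. Both were highest in MPTP 2 and lowest in vehicle 1, a range of 12.1 times for Tbr1 and of 18.7 times for Emx1. The vehicle 1 value of Emx1 corresponds to about 13.4 estimated fragments, so it carries a large counting error.

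Camk2a and Nrgn are the abundant members. Camk2a encodes the alpha subunit of calcium/calmodulin-dependent protein kinase II, a kinase of the excitatory postsynapse, and Nrgn encodes neurogranin, which binds calmodulin when calcium is low. Camk2a (chromosome 18, 60925618 to 60988152, plus strand, ENSMUSG00000024617) stood at 57.5, 197 and 183 FPKM in the vehicle libraries, at 109, 213 and 161 FPKM in the MPTP libraries and at 203, 69.7 and 234 FPKM in the MPTP + running libraries. Nrgn (chr9:37544492-37552904, minus strand, ENSMUSG00000053310) stood at 89.0, 367 and 256 FPKM in vehicle, at 262, 608 and 180 FPKM in MPTP and at 472, 171 and 391 FPKM in MPTP + running. Vehicle 1 was again lowest for both, and MPTP + running 2 was second lowest. Camk2b, the beta subunit of the same kinase, varied less, between 32.6 FPKM (MPTP 3) and 63.7 FPKM (MPTP + running 1), and the ratio of Camk2a to Camk2b went from 1.20 in vehicle 1 to 4.94 in MPTP 3.

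Fibcd1 and Cux2 followed other patterns. Fibcd1 encodes a membrane receptor that binds acetylated sugars, and in the hippocampus its transcript is known as a marker of CA1 pyramidal cells. It lies on the minus strand at chr2:31813290-31846005 (ENSMUSG00000026841) and stood at 3.12, 2.24 and 3.03 FPKM in the vehicle libraries, at 3.09, 1.24 and 6.27 FPKM in the MPTP libraries and at 3.47, 1.62 and 11.9 FPKM in the MPTP + running libraries. Vehicle 1, lowest for most of the other genes, was unremarkable here, MPTP 2 was the lowest library, and MPTP 3 and MPTP + running 3 were the highest. Spink8 and Lct, 2 genes from a list of hippocampal subfield markers that were singled out after their values were seen, were also high in MPTP + running 3, where Spink8 reached 8.61 FPKM and Lct 2.72 FPKM, against 0.055 and 0.0319 FPKM in vehicle 1. Spink8 stood at 2.77 FPKM in MPTP 3 but also at 5.32 FPKM in MPTP + running 1, where Fibcd1 was at 3.47 FPKM.

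Cux2 encodes a homeobox factor of upper-layer cortical neurons and is expressed in other brain cells as well. It lies on the minus strand at chr5:121856366-122050102 (ENSMUSG00000042589). Its level was 5.12, 5.97 and 5.56 FPKM in the vehicle libraries, 5.69, 6.52 and 5.27 FPKM in the MPTP libraries and 4.05, 3.88 and 3.79 FPKM in the MPTP + running libraries. The 3 MPTP + running libraries were the 3 lowest of the 9, with no overlap with either other group, and the vehicle and MPTP libraries overlapped. The highest library was 1.72 times the lowest, the narrowest range among the 9 genes.

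Ordered by mean FPKM over the 9 libraries, a scale per length, the genes ran from Nrgn (311 FPKM) through Camk2a (159), Slc17a7 (73.1), Neurod6 (22.4), Neurod2 (9.97), Tbr1 (7.92), Cux2 (5.09) and Fibcd1 (4.003) to Emx1 (2.15). The first 5 kept this order in 9 of 9 libraries. The lower neighbours did not: Neurod2 was above Tbr1 in 6 of 9 libraries, Tbr1 above Cux2 in 5, Cux2 above Fibcd1 in 7 and Fibcd1 above Emx1 in 7.

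The spread between libraries of one group was large for 8 of the 9 genes. The residual SD of log2(FPKM + 1) around the group means was 1.45 for Neurod6, 1.10 for Tbr1, 1.03 for Neurod2, 0.92 for Nrgn, 0.88 for Slc17a7, 0.84 for Fibcd1, 0.84 for Camk2a and 0.73 for Emx1, where the median over all tested genes was 0.16. Each of these exceeded the residual SD of 98.5% to 99.9% of the tested genes. Cux2 was the exception with 0.096, above 18.3% of the tested genes. Group membership accounted for 87.8% of the variance of Cux2, a share that 0.231% of the tested genes exceeded, and for 2.45% (Tbr1) to 21.3% (Neurod6) of that of the other 8, against a median of 20.9% over all tested genes.

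**Figure D2:**
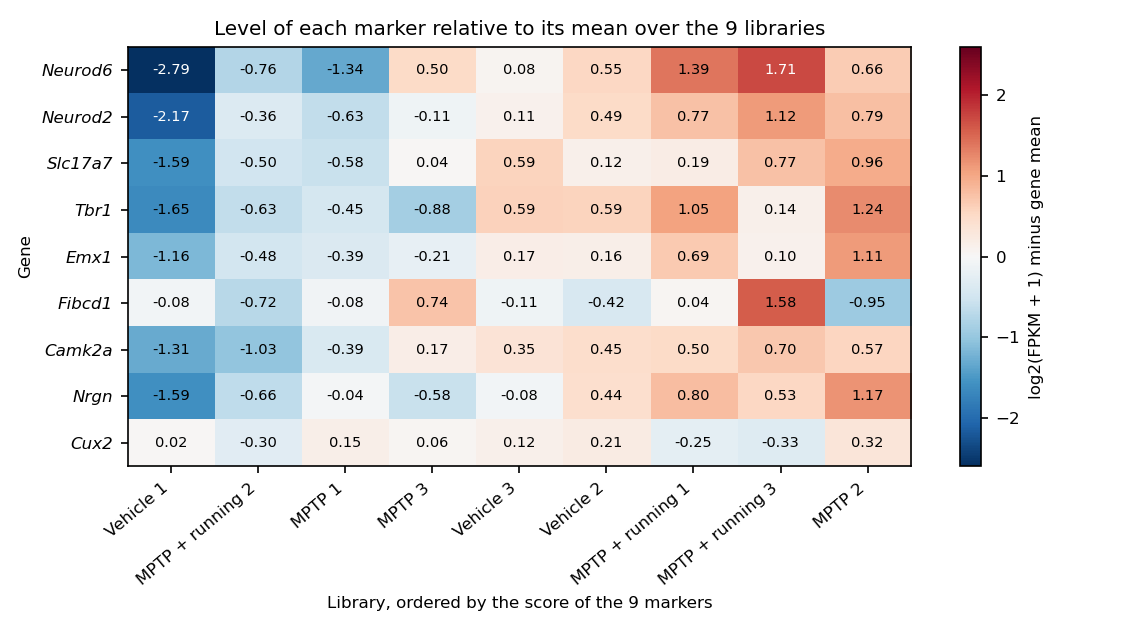
Level of each gene in each library as log2(FPKM + 1) minus the gene's mean over the 9 libraries, with libraries ordered by the mean standardised level of the 9 genes. Vehicle 1 is at −2.79 for Neurod6 and at 0.02 for Cux2, and Fibcd1 is at −0.95 in MPTP 2, the library with the highest score.

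The first comparison asks how the genes differed between MPTP-treated and saline-treated mice. All 9 were higher on average with MPTP, with a median difference of 0.43 in log2(FPKM + 1), a scale that understates the change of low genes. Over all tested genes 48.1% were higher and the median was −0.01. The differences ran from 0.06 (Cux2, 95% interval −0.15 to 0.27) to 0.66 (Neurod6, −1.58 to 2.90), and Nrgn (0.59, −0.83 to 2.01), Neurod2 (0.54, −1.06 to 2.13), Emx1 (0.45, −0.69 to 1.59) and Slc17a7 (0.43, −0.94 to 1.80) lay between. Of the 9 genes, limma with Benjamini-Hochberg adjustment over all tested genes called 0, as it called 0.0125% of all tested genes, and 0 had an unadjusted p under 0.05, as did 4.09% of tested genes. In 0 of the 9 did the groups separate, where 9.43% of tested genes had groups that did not overlap. The common direction rested on vehicle 1: without it 3 of 9 were higher and the median was −0.22. Without MPTP 2 alone, and equally without the 3 libraries with Slc6a3 under 1 FPKM, 6 of 9 were higher and the median was 0.06. Markers of other neurons also shared a direction in this comparison: 12 of 12 thalamic neuron genes were lower with MPTP (median −0.44) and 11 of 11 striatal projection neuron genes were lower (median −0.22), with 0 called by limma after Benjamini-Hochberg adjustment and 0 at an unadjusted p under 0.05. These counts include vehicle 1 and were not recomputed without it. Relative to the list mean, the mean log2(FPKM + 1) of the thalamic list was 0.99, −0.61 and 0.63 in vehicle 1, 2 and 3. In MPTP 1, 2 and 3 it was −0.52, −0.81 and 0.84. For the striatal list it was 0.66, −0.61 and 0.46 in vehicle and 0.93, −1.10 and −0.14 in MPTP. The part of these lists in the differences of the excitatory neuron genes was not tested.

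The second comparison asks what differed in MPTP-treated mice that ran. Here 6 of the 9 genes were higher and 3 lower with running, with a median of 0.05, where 45.7% of all tested genes were higher. Neurod6 (0.84, 95% interval −1.40 to 3.08), Neurod2 (0.49, −1.10 to 2.09) and Fibcd1 (0.40, −0.91 to 1.71) had the highest differences, and Camk2a (−0.06, −1.36 to 1.24) and Emx1 (−0.07, −1.21 to 1.07) were close to 0 with wide intervals. The intervals of Neurod6, Neurod2, Camk2a and Emx1 include a difference of 1 log2 unit in either direction, so for them neither a change nor its absence was shown at this number of libraries. Limma called 0 of the 9 and 0% of all tested genes after Benjamini-Hochberg adjustment, and 1 of the 9, Cux2, had an unadjusted p under 0.05, as did 3.99% of tested genes. The count of 6 higher turned with single libraries. It was 3 of 9 without MPTP 3, without MPTP + running 1 or without MPTP + running 3, 4 of 9 without MPTP 1, 7 without MPTP 2 and 8 without MPTP + running 2. Without MPTP 1 the difference of Neurod6 was 0.20 and that of Neurod2 0.17, and without MPTP + running 3 that of Fibcd1 was −0.24. Without the 3 libraries with Slc6a3 under 1 FPKM, which leaves 1 MPTP + running library whose spread is assumed to match that of the other groups, 8 of 9 were higher and the median was 0.84.

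Cux2 was lower with running, at 3.90 ± 0.131 FPKM against 5.83 ± 0.635 in MPTP and 5.55 ± 0.423 in vehicle (SD, n = 3 each). The difference from MPTP was −0.47 in log2(FPKM + 1) (95% interval −0.68 to −0.26, SE 0.09), with an unadjusted limma p of 0.000675 and a Benjamini-Hochberg adjusted p of 0.831 over all tested genes. It therefore did not pass the threshold. Groups that did not overlap in this direction were found for 5.36% of all tested genes. The exact two-sided permutation test over the 20 splits of 6 libraries gave p = 0.1, the smallest it can give, and 0.995 after Benjamini-Hochberg adjustment over the 27 tests of 9 genes in 3 comparisons. Over 22 alternatives the difference stayed between −0.56 and −0.40, with adjusted limma p from 0.441 to 1.0.

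The comparison of MPTP + running with vehicle shares its libraries with both others and is no independent evidence. In it 8 of the 9 genes were higher and Cux2 was lower, with a median of 0.45, where 44.7% of tested genes were higher. Neurod6 had a difference of 1.50 (95% interval −0.74 to 3.74), Neurod2 of 1.03 (−0.57 to 2.63) and Nrgn of 0.63 (−0.79 to 2.06). Limma with Benjamini-Hochberg adjustment called 0 of the 9 and 0% of all tested genes, with adjusted p from 0.753 to 0.944 for the 9, and 1 of the 9, Cux2, had an unadjusted p under 0.05, as did 6.54% of tested genes. The Cux2 difference was −0.42 (95% interval −0.63 to −0.21), with an adjusted limma p of 0.753 (0.00157 before adjustment). Groups did not overlap in this direction for 9.2% of tested genes. Without vehicle 1, 4 of 9 were higher and the median was −0.06, and the differences were 0.47 for Neurod6, 0.21 for Neurod2 and 0.044 for Nrgn. Without the 3 libraries with low Slc6a3, all from MPTP-treated mice, MPTP + running 3 was the only running library left. There 8 of 9 were higher and the median was 0.94, which rests on that library.

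**Figure D3:**
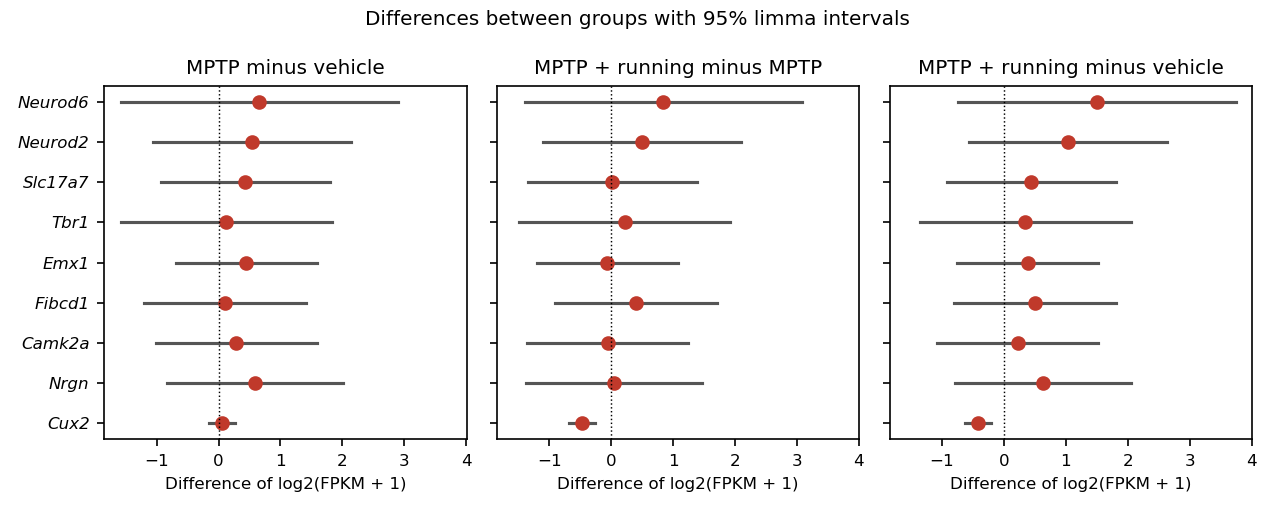
Differences of log2(FPKM + 1) between groups for each gene, with 95% intervals from limma, in panels for MPTP minus vehicle, MPTP + running minus MPTP and MPTP + running minus vehicle. The intervals of 8 genes include 0 in every panel, and that of Cux2 is narrow and excludes 0 in the panels with the running group before adjustment for the number of genes tested.

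Although they did not separate the groups, 7 of the genes had parallel levels over the libraries. Neurod6, Neurod2, Slc17a7, Tbr1, Emx1, Camk2a and Nrgn form 21 pairs, whose Pearson r over the 9 libraries ran from 0.75 (Neurod6 with Tbr1) to 0.97 (Neurod6 with Neurod2), with a median of 0.88. Spearman's rho ran from 0.65 to 0.98. Among all 36 pairs of the 9 genes, exact permutation tests over the 362880 orders, adjusted by Benjamini-Hochberg over 72 p-values, passed 0.05 for r in these 21 pairs, with adjusted p from 0.00179 to 0.0368. For rho 19 of the 21 passed, and Neurod6 with Tbr1 (adjusted p = 0.114) and with Emx1 (adjusted p = 0.0547) did not. Leaving out the 2 libraries farthest from the median of the first gene, which took out vehicle 1 in each of the 21, the r ran from 0.43 to 0.92 with a median of 0.79. The r of 0.43 was that of Neurod6 with Tbr1, which therefore rests in part on the libraries left out. After each group was centred on its own mean the r ran from 0.77 to 0.98, so the parallel levels lay within the groups.

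Within the 7, some pairs lay closer together than others. Neurod6 followed Neurod2 (r = 0.97), Tbr1 followed Emx1 (r = 0.95), Nrgn followed Emx1 and Tbr1 (r = 0.94 each), and Slc17a7 followed Neurod2 (r = 0.93) and Camk2a (r = 0.91). MPTP 3 and MPTP + running 3 set the transcription factors apart from each other: there Neurod6 was at 22.7 and 54.0 FPKM, 0.50 and 1.71 above its log2 mean, and Tbr1 was at 3.05 and 7.19 FPKM, which is −0.88 and 0.14 relative to its log2 mean. Those are also the 2 libraries in which Fibcd1 was highest.

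The 15 pairs with Fibcd1 or Cux2 had r from −0.47 (Fibcd1 with Cux2) to 0.36 (Neurod6 with Fibcd1), and 0 of them passed the exact permutation test for r or rho after adjustment. For Cux2 this depended on the groups. Its r with the 7 lay between −0.22 and 0.20 over all libraries and between 0.47 and 0.87 once each group was centred on its mean. Within vehicle and within MPTP, Cux2 was highest in replicate 2, as were Neurod6, Neurod2, Nrgn and Camk2a, while the running libraries had a lower level throughout.

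**Figure D4:**
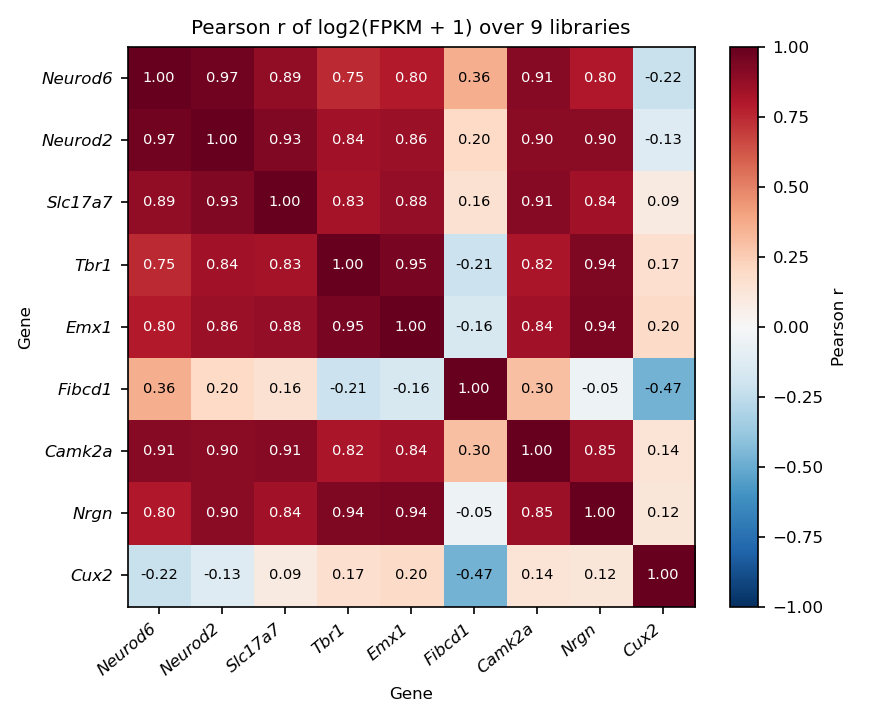
Pearson r of log2(FPKM + 1) between each pair of the 9 genes over the 9 libraries, from blue (−1) through white (0) to red (1). The block of 7 genes has r of 0.75 or more, and the rows of Fibcd1 and Cux2 stay between −0.47 and 0.36.

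The mean standardised level of the 9 genes gives each library a score: −1.47 in vehicle 1, −0.81 in MPTP + running 2, −0.38 in MPTP 1, −0.02 in MPTP 3, 0.28 in vehicle 3, 0.37 in vehicle 2, 0.53 in MPTP + running 1, 0.65 in MPTP + running 3 and 0.85 in MPTP 2. Each group had libraries on both sides of 0. The first principal component of all tested genes, which held 27.1% of the variance, had an absolute r of 0.95 with this score, while the second (20.5%) and the third (12.4%) had 0.05 and 0.14. The axis on which these libraries differ most was thus nearly parallel to the level of the excitatory neuron genes. Among the 15988 other tested genes, 218 (1.36%) had r above 0.9 with the score and 108 (0.676%) had r under −0.9. These r describe 9 libraries that share all their genes and carry no test.

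The protein-coding genes most like the score, among those with a mean above 1 FPKM, were named by their r. Itpka, an inositol trisphosphate kinase of dendritic spines, came first (r = 0.98) with 7.19 FPKM in vehicle 1 and 51.4 FPKM in MPTP 2. Pik3r2, Phyhip, Olfm1, Pld3, Psd, Ctxn1, Mras, Slc35f5 and Epn1 followed, each with r of 0.98, and Ctxn1, which encodes cortexin, went from 35.0 to 139 FPKM. All 10 were lowest in vehicle 1 and highest in MPTP 2. The genes least like it were Txnrd1 (r = −0.98), Nipal2, Ddx25, Impad1 and Tmc7, all highest in vehicle 1. Txnrd1, a thioredoxin reductase, lay between 7.08 and 9.18 FPKM, and Nipal2 between 1.11 and 2.16 FPKM.

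Other genes of excitatory forebrain neurons followed the same order of libraries. Of 15 tested transcription factors of these cells, 10 had r above 0.5 with the score, and of 21 tested synaptic and signalling genes 19 had, against 16.6% of all other tested genes. Ddn, which encodes the dendritic protein dendrin, was at 35.6 FPKM in vehicle 1 and reached 231 FPKM in MPTP + running 3 (r = 0.96). Nptxr, the neuronal pentraxin receptor, was at 32.9 and 125 FPKM in the same libraries (r = 0.96), and Zbtb18, a transcriptional repressor of developing cortical neurons, was at 6.94 FPKM in vehicle 1 and reached 32.6 FPKM in MPTP 2 (r = 0.94). Bcl11b, a factor of deep-layer cortical and also of striatal neurons, did not follow (r = 0.16). Limma called 0 of these genes in any comparison after Benjamini-Hochberg adjustment, and at an unadjusted p under 0.05 there were 0 with MPTP, 0 between the MPTP groups and 1 in each list between MPTP + running and vehicle.

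The list of 17 tested hippocampal subfield genes was mixed, with 4 above an r of 0.5 and a list r of 0.48. C1ql3 followed the score (r = 0.89, with 4.50 FPKM in vehicle 1 and 21.5 FPKM in MPTP + running 3), while Ociad2 did not (r = −0.15). Mpped1 stood at 3.25, 22.5 and 23.7 FPKM in vehicle, 12.9, 5.88 and 3.58 FPKM in MPTP and 25.0, 10.5 and 11.3 FPKM in MPTP + running, so it was low in MPTP 2 where most excitatory neuron genes were highest. Between MPTP + running and MPTP 15 of the 17 were higher, with a median of 0.43, limma with Benjamini-Hochberg adjustment called 0, and 2 had an unadjusted p under 0.05, where 45.7% of all tested genes were higher and 3.99% had such a p. Between MPTP + running and vehicle 13 of the 17 were higher, limma called 0 and 3 had an unadjusted p under 0.05, where the shares over all tested genes were 44.7% and 6.54%. Between MPTP and vehicle 7 were higher and 10 lower. Summed over the list, the level was 80.2 to 121 FPKM in vehicle, 76.6 to 100.3 in MPTP and 69.4 to 146 in MPTP + running.

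The partners of Camk2a and Nrgn were in part parallel to the score. Of 20 genes of calmodulin and its kinases 13 had r above 0.5. Calm2, which encodes calmodulin, had its lowest level in vehicle 1 (609 FPKM) and its highest in MPTP + running 1 (951 FPKM), and Camk2n1, an inhibitor of the kinase, lay between 108 FPKM in vehicle 1 and 394 FPKM in MPTP 2 (r = 0.84). Of 16 glutamate receptor and postsynaptic scaffold genes 9 had r above 0.5. Dlg4, the scaffold PSD-95, followed the score (r = 0.89, 22.3 to 34.8 FPKM), and Grin1, the obligatory NMDA receptor subunit, lay between 30.6 and 36.7 FPKM (r = 0.31). Limma called 0 genes of either list, and 1 of the 20 kinase partners in each comparison and 0 receptor genes had an unadjusted p under 0.05, where 3.99% to 6.54% of all tested genes had.

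Markers of other cells moved with or against the score, and their part in these differences between libraries was not tested. Telencephalic interneuron genes went with it (list r = 0.90, 9 of 12 above 0.5): Sst, encoding somatostatin, was at 56.2 FPKM in vehicle 1 and 154 FPKM in MPTP 2, and Npy at 19.7 and 84.6 FPKM in the same libraries. Striatal projection neuron genes went against it (list r = −0.81), with 11 of 11 under −0.5 where 19.8% of all other tested genes were. Penk, which encodes enkephalin precursor, stood at 84.3 FPKM in vehicle 1 and 122 FPKM in MPTP + running 2, the 2 libraries with the lowest score, and at 33.1 FPKM in MPTP 2. Summed over the striatal list the level was 91.4 to 235 FPKM in vehicle, 80.2 to 286 in MPTP and 98.0 to 290.2 in MPTP + running. Oligodendrocyte genes also went against it (list r = −0.82, 8 of 8 under −0.5), and Mobp, a myelin gene, was at 418 FPKM in vehicle 1 and 231 FPKM in MPTP + running 1. Their summed level was 1256 to 1968 FPKM in vehicle, 1173 to 1762 in MPTP and 1168 to 2055 in MPTP + running, and that of the interneuron list 117 to 260 FPKM, 165 to 361 and 179 to 341 in the same groups. None of the genes of these 3 lists was at 0 in any library, limma called 0 of them after Benjamini-Hochberg adjustment, and 0 had an unadjusted p under 0.05.

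The lists of midbrain dopaminergic neurons (list r = −0.36), thalamic neurons (−0.31) and all neurons (0.37) were less parallel to the score. Of the 11 tested dopaminergic genes 5 were nevertheless under −0.5. Summed over the 10 genes of all neurons the level was 1156 to 1381 FPKM in vehicle, 1164 to 1456 in MPTP and 1247 to 1516 in MPTP + running, ranges far narrower than those of the excitatory neuron genes. Thalamic neuron genes summed to 87.8 to 242 FPKM in vehicle, 65.1 to 221 in MPTP and 109 to 137 in MPTP + running. Prkcd, a thalamic marker, stood at 48.3 FPKM in vehicle 1 and at 2.40 FPKM in vehicle 2. Microglial genes went with the score as a list (list r = 0.79), with 6 of 8 above 0.5. Csf1r (r = 0.80) lay between 11.9 and 16.3 FPKM. The other 2 did not follow the score and are named after their values were seen: P2ry12 (r = 0.09) lay between 4.26 and 12.5 FPKM and Cx3cr1 (r = 0.32) between 0.949 and 4.28 FPKM. The list of GABAergic neurons went against it (list r = −0.86), with 3 of 5 genes under −0.5. Vesicular and plasma membrane glutamate transport (list r = −0.55) was split, with 3 of 6 genes under −0.5 and 2 above 0.5. Astrocytes had a list r of −0.50, but 1 of 7 genes was under −0.5, where 19.8% of all other tested genes were.

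The summed level of the choroid plexus and ependymal list differed between libraries mainly through 1 gene. It was 49.9 to 350 FPKM in vehicle, 953 to 2069 FPKM in MPTP and 29.1 to 947 FPKM in MPTP + running. Most of it was Ttr, which encodes the carrier protein transthyretin. Like Ttr, Clic6 and Kl were higher in every MPTP library than in any vehicle library, as were Kcne2 and Folr1, named after their values were seen. Over all tested genes, 9.43% had vehicle and MPTP values that did not overlap, in either direction. Clic6 stood at 1.43, 0.844 and 4.55 FPKM in vehicle, 11.3, 5.98 and 14.7 FPKM in MPTP and 5.36, 1.17 and 5.97 FPKM in MPTP + running. Foxj1, a factor of ciliated cells, did not follow this order, at 4.55 FPKM in MPTP 2 and at 7.11 FPKM in vehicle 1. Otx2, Tmem212 and Ccdc153 did not follow it either. Between MPTP and vehicle 7 of the 9 were higher and 2 lower, where 48.1% of all tested genes were higher. Limma called 0 of these 9 genes after Benjamini-Hochberg adjustment, and before adjustment 5 had p under 0.05 with MPTP against vehicle, where 4.09% of all tested genes had, and 3 between the MPTP groups, where 3.99% had. The list's r with the excitatory neuron score was 0.39, and its part in the excitatory neuron results was not tested.

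**Figure D5:**
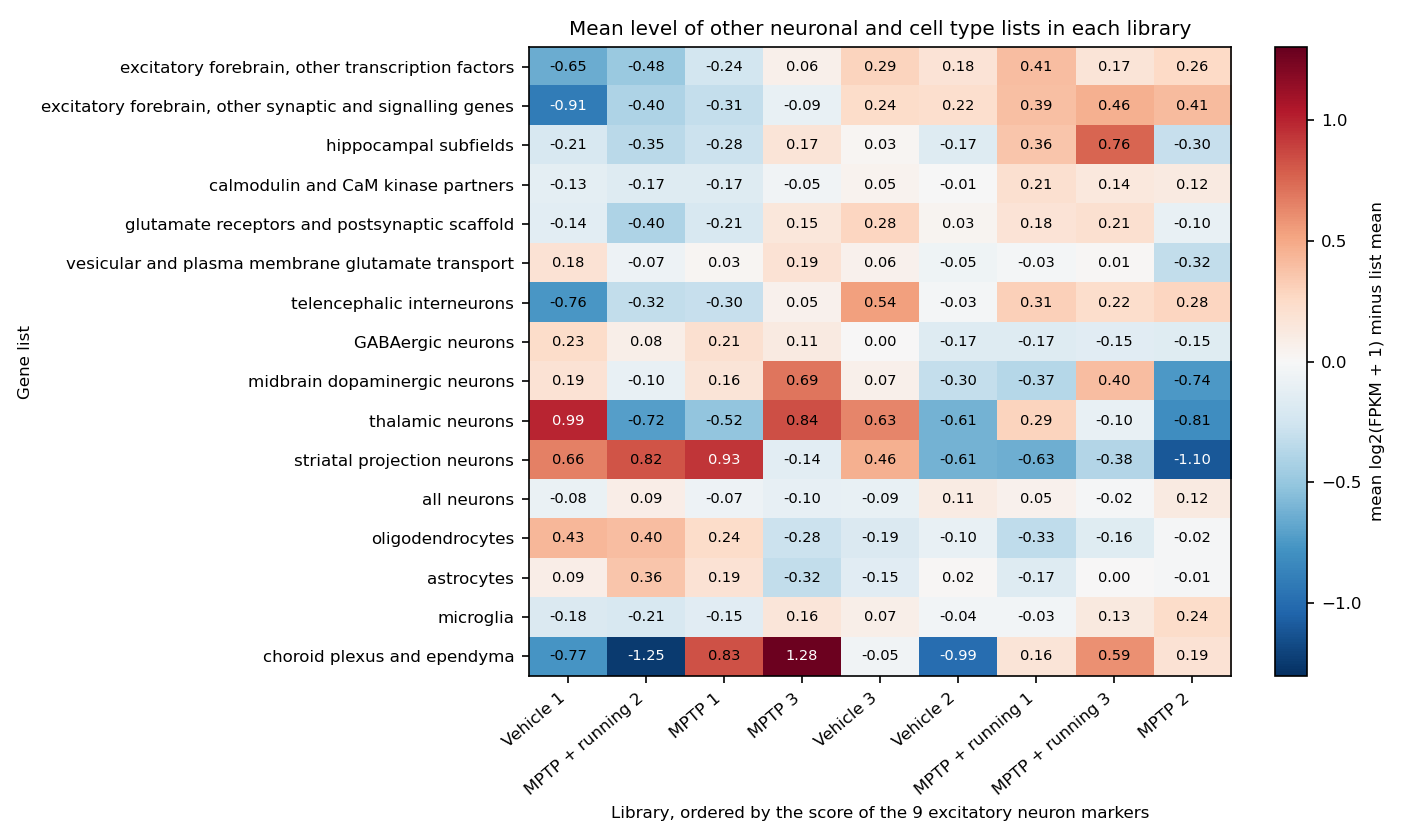
Mean log2(FPKM + 1) of 16 lists of other neuronal and cell type genes in each library, minus the list's mean over the 9 libraries, with libraries ordered by the score of the 9 excitatory neuron genes. The synaptic and signalling list runs from −0.91 in vehicle 1 to 0.41 in MPTP 2, and the striatal list from 0.66 to −1.10 in the same libraries.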

How the data were processed

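Total RNA was bead-selected for mRNA, fragmented and read on a NovaSeq6000, per the labels' protocols. FPKM values were deposited by the authors and used as given. The submitters' processing notes name bcl2fastq, HTSeq, DESeq2 and GRCm38, without versions. No aligner, FPKM tool or strandedness is named: not given in the sources used here. Symbols and coordinates are from GENCODE M21: 55154 of 55335 genes matched a symbol, and 0 of the 9 excitatory neuron genes share exons with another gene.

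The 15997 genes whose mean reached 0.5 FPKM entered 1 limma-trend fit on log2(FPKM + 1) over all 9 libraries, without a replicate block. Two-sided p were adjusted by Benjamini-Hochberg and called under 0.05 (6 residual and 2.68 prior degrees of freedom). A simulation run with the fit drew independent noise for each gene, unlike these libraries, whose genes vary together. No result here rests on it. Same-numbered vehicle and MPTP libraries deviated together only weakly from their group means (r = 0.25, 0.33 and 0.11). Against MPTP + running the r were −0.34, −0.13 and 0.25 for MPTP and −0.26, 0.01 and 0.24 for vehicle. The numbers carry no stated meaning, so the main fit did not pair libraries by them. A fit with a replicate block is given as an alternative.

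Named genes are the 9, the 10 most and 5 least like their score among protein-coding genes whose mean reached 1 FPKM, and up to 4 of each of 16 lists by mean level, besides exceptions named as such and the partner genes Slc17a6 and Camk2b. The 9 genes, the lists and the rules were chosen with earlier results of these data known. The fragments per library were estimated from low FPKM values of 19516 single-transcript genes, of which 41.1% to 43.3% lay within 2% of a whole fragment, so whole counts were not recovered and depth is approximate. Alternatives changed the pseudocount, filter, scaling, variance model, library weights, block and libraries, and 1, without the libraries low in Slc6a3, was chosen after seeing the data. R 4.3.3, limma 3.58.1, Python 3.11.15, pandas 2.3.3, numpy 2.4.6 and matplotlib 3.10.9 were used.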

Additional observations from a re-analysis of the deposited data

How the results depend on the processing

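Over 22 alternatives the 9 genes were recomputed 588 times: 0 of these passed the threshold and 49 turned the sign of a difference, and for each the cause was not tested. Some alternatives could change a p-value but not a difference, so their signs were fixed in advance. They were the filters, the changes of variance model, the replicate block, the fit with 2 groups alone and leaving out a library of the group not compared. Cux2 with running kept its sign throughout, which leaving out single libraries could not change because its groups did not overlap. The fit with a replicate block, which pairs the libraries of the same number, changed no call of the 9 genes (Cux2 adjusted p = 0.670 against MPTP and 0.706 against vehicle) and called 3 genes between MPTP and vehicle in place of 2.

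Array weights, which let limma discount libraries that deviate, gave MPTP minus vehicle differences of −0.19 for Neurod6, −0.089 for Neurod2, −0.088 for Slc17a7, −0.47 for Tbr1, −0.015 for Emx1 and −0.14 for Camk2a, and running minus MPTP differences of 0.35 for Emx1 and 0.43 for Camk2a. Rescaling to the same sum put Cux2 at −0.0092 between MPTP and vehicle, and quantile normalization put Slc17a7 at −0.020 between running and MPTP. Without the 3 libraries low in Slc6a3, an alternative chosen after seeing the data, Tbr1 was at −0.51, Emx1 at −0.020 and Cux2 at −0.015 between MPTP and vehicle. Between running and MPTP, Emx1 was at 0.40, Camk2a at 0.81 and the median of the 9 at 0.84, with MPTP + running 3 as the only running library left.

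With 1 library left out at a time, MPTP minus vehicle ran from −0.37 to 1.30 for Neurod6, −0.29 to 1.04 for Neurod2, −0.22 to 0.87 for Slc17a7, −0.62 to 0.55 for Tbr1, −0.020 to 0.73 for Emx1, −0.32 to 0.53 for Fibcd1, −0.28 to 0.59 for Camk2a, −0.00082 to 1.01 for Nrgn and −0.015 to 0.12 for Cux2. Running minus MPTP ran from 0.20 to 1.61 for Neurod6, 0.17 to 0.93 for Neurod2, −0.35 to 0.43 for Slc17a7, −0.22 to 0.85 for Tbr1, −0.36 to 0.40 for Emx1, −0.24 to 0.91 for Fibcd1, −0.38 to 0.49 for Camk2a and −0.34 to 0.54 for Nrgn. Running minus vehicle ran from 0.47 to 2.27 for Neurod6, 0.21 to 1.54 for Neurod2, 0.044 to 1.08 for Nrgn, −0.20 to 0.88 for Slc17a7, −0.40 to 0.75 for Tbr1, −0.061 to 0.67 for Emx1, −0.14 to 1.01 for Fibcd1 and −0.34 to 0.77 for Camk2a. The median of the 9 ran over all alternatives from −0.22 to 0.70, from −0.22 to 0.84 and from −0.06 to 0.94 in the 3 comparisons.

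The number of genes called over the whole table between MPTP and vehicle was 0 with the libraries of the 2 groups alone and 1 without the libraries low in Slc6a3. Between running and MPTP it was 3 with no filter, 1 with a filter at 5 FPKM, 1 with array weights, 1 after rescaling to an equal sum and 1 without the libraries low in Slc6a3. With 1 library left out it ran from 0 to 32, from 0 to 25 and from 0 to 2 in the 3 comparisons, with the highest of the first and the second both reached without MPTP 1, and 0 in the first without MPTP 2, MPTP 3 or any 1 running library. With 3 libraries per group, a rise of 1 log2 unit lay within the limma interval of each gene but Cux2 in each comparison.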
